A study of Bos taurus with 8 samples.

Results

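Cells build ribosomes in the nucleolus, and this account follows the genes of that pathway and of the RNA-cutting enzymes RNase P and RNase MRP in early bovine embryos. The gene group was defined by name: every feature whose symbol starts with NOP, NOL, UTP, RRP or POLR1, or with RPP or POP followed by a digit. This rule found 50 genes among the 21258 features in the files, of which 14158 carry a symbol. By known role, 5 encode subunits of RNA polymerase I, 4 the core or the assembly of small nucleolar ribonucleoproteins (snoRNPs), 18 factors for the small ribosomal subunit, 9 factors for the large subunit, and 10 proteins of RNase P and RNase MRP. The remaining 4 (NOL3, NOL4, NOL4L and NOL7) match the rule by symbol, and they are kept apart because NOL3 is known as an inhibitor of apoptosis and the roles of the other 3 in ribosome assembly are less settled.

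The RNA came from Holstein embryos collected when each had 8 cells, and each library was made from a pool of 8 embryos. Embryos from in vitro fertilisation (IVF) gave 3 libraries, embryos cloned by somatic cell nuclear transfer (SCNT) gave 3, and cloned embryos overexpressing KDM4E, a histone lysine demethylase, gave 2 (KDM4E-SCNT). SCNT without the extra KDM4E is the control that the study defined for both other groups, so the comparisons of IVF and of KDM4E-SCNT with SCNT share the same 3 control libraries. The labels used here do not name the donor cells, the way KDM4E was introduced, or the hours after fertilisation or activation, and they do not say if replicate pools were collected on separate occasions. What the p-values weigh is thus library-to-library spread, part of which may be technical. Libraries of whole pooled embryos cannot tell fewer expressing cells from less RNA per cell.

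RNA polymerase I copies the ribosomal RNA genes into a long precursor. SnoRNPs of the box C/D class methylate that precursor, and those of the box H/ACA class convert uridines to pseudouridines. The small-subunit processome, built from many UTP proteins around the U3 snoRNA, folds and cuts the part that becomes the small subunit, while another chain of factors releases and matures the large subunit. RNase P trims the 5′ ends of transfer RNA precursors, and RNase MRP, which shares most of its proteins, cuts the ribosomal precursor between the small-subunit and large-subunit parts. In cattle the main wave of embryonic transcription starts around the stage sampled here, so the RNA of such embryos is a mixture of stored maternal and newly made transcripts.

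Values are FPKM, a fragment count scaled by transcript length and by library size. Across the 8 libraries the total FPKM was 702294 to 844175, and 10975 to 13050 features reached 1 FPKM. The files hold no counts. Among features with 1 transcript at 0.1 to 0.5 FPKM, the commonest log2 ratio to IVF replicate 1 was between -0.1 and 0 in each library (bins of 0.1), a description of low values that does not give the depth of any library. No feature carried the symbol KDM4E, and the closest candidate, LOC524768, whose identity is uncertain, stood at 101.85 and 206.44 FPKM in KDM4E-SCNT, 25.44 to 33.93 FPKM in SCNT and 88.34 to 109.12 FPKM in IVF. Mitochondrially encoded transcripts took 6.08 to 7.1% of FPKM in IVF, 7.54 to 10.6% in SCNT and 11 to 11.5% in KDM4E-SCNT. Markers of oocytes and early embryos (11 of 12 listed genes in the files) summed to 8705 to 10087 FPKM in IVF, 1586 to 2207 in SCNT and 5590 to 7472 in KDM4E-SCNT, with none at 0 throughout a group. Fibroblast markers (14 of 15) summed to 39.6 to 61.5, 118 to 184 and 72.5 to 355 FPKM in the same order; TAGLN was at 0 in all IVF libraries, THY1 in all SCNT libraries and PDGFRB in both KDM4E-SCNT libraries. Cumulus markers (9 of 11) summed to 102 to 164, 16.9 to 25.5 and 46.1 to 99.7 FPKM, with AMH at 0 in all IVF libraries, PTX3 and FSHR in all SCNT libraries and FSHR in both KDM4E-SCNT libraries. The sums hide mixed directions. By the test described below, all 11 oocyte and early embryo markers were higher in IVF than in SCNT. Of 11 tested fibroblast markers, 4 were lower in IVF and 1 (FBN1) was higher. Of 4 tested cumulus markers, 1 (TNFAIP6) was lower and 3 (HAS2, STAR and PTGS2) were higher. Over all tested features 23.6% were lower and 34.9% higher. The part of these markers in the results was not tested.

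The ribosome biogenesis and RNase P genes were, as a group, more abundant in cloned embryos than in IVF embryos, and KDM4E-SCNT lay between. The 50 genes summed to 1106.1, 1293.4 and 1266.2 FPKM in the IVF libraries, 5050.3, 4450.6 and 5048.7 FPKM in the SCNT libraries, and 2626.8 and 1946.4 FPKM in the KDM4E-SCNT libraries. The 3 groups did not overlap in this sum. As a share of all FPKM the sum was 0.149, 0.184 and 0.172% in IVF, 0.598, 0.528 and 0.621% in SCNT, and 0.327 and 0.258% in KDM4E-SCNT. The summed FPKM of each role group was in the same order with no overlap, IVF lowest and SCNT highest, except for the RNA polymerase I subunits, which summed to 262.2 to 382.2 FPKM in IVF, 364.6 to 515.4 in SCNT and 429.6 to 446.6 in KDM4E-SCNT.

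Of the 50 genes, 48 reached at least 1 FPKM in at least 2 libraries and were tested by limma on log2(FPKM + 1). NOL3 and NOL4L were too low to test. A gene is called when its p-value, adjusted by the Benjamini-Hochberg method over all 14839 tested features of the files, is under 0.05 (two-sided), and ± after a log2 difference is its standard error. Folds are 2 to the power of these log2 differences, and the added 1 makes them understate the change of low genes. POP1, NOL9 and RPP25L reached 1 FPKM in SCNT alone, so they passed the filter only through the group in which they were high and had to differ. They are in the counts over the 48 genes, and their p-values support nothing here. The counts of calls are given again for the 45 other tested genes, except for KDM4E-SCNT against IVF, where none of them was called. Counts of genes without overlap and of 4-fold differences are given over the 48 alone, and their place in these is stated.

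**Figure D1:**
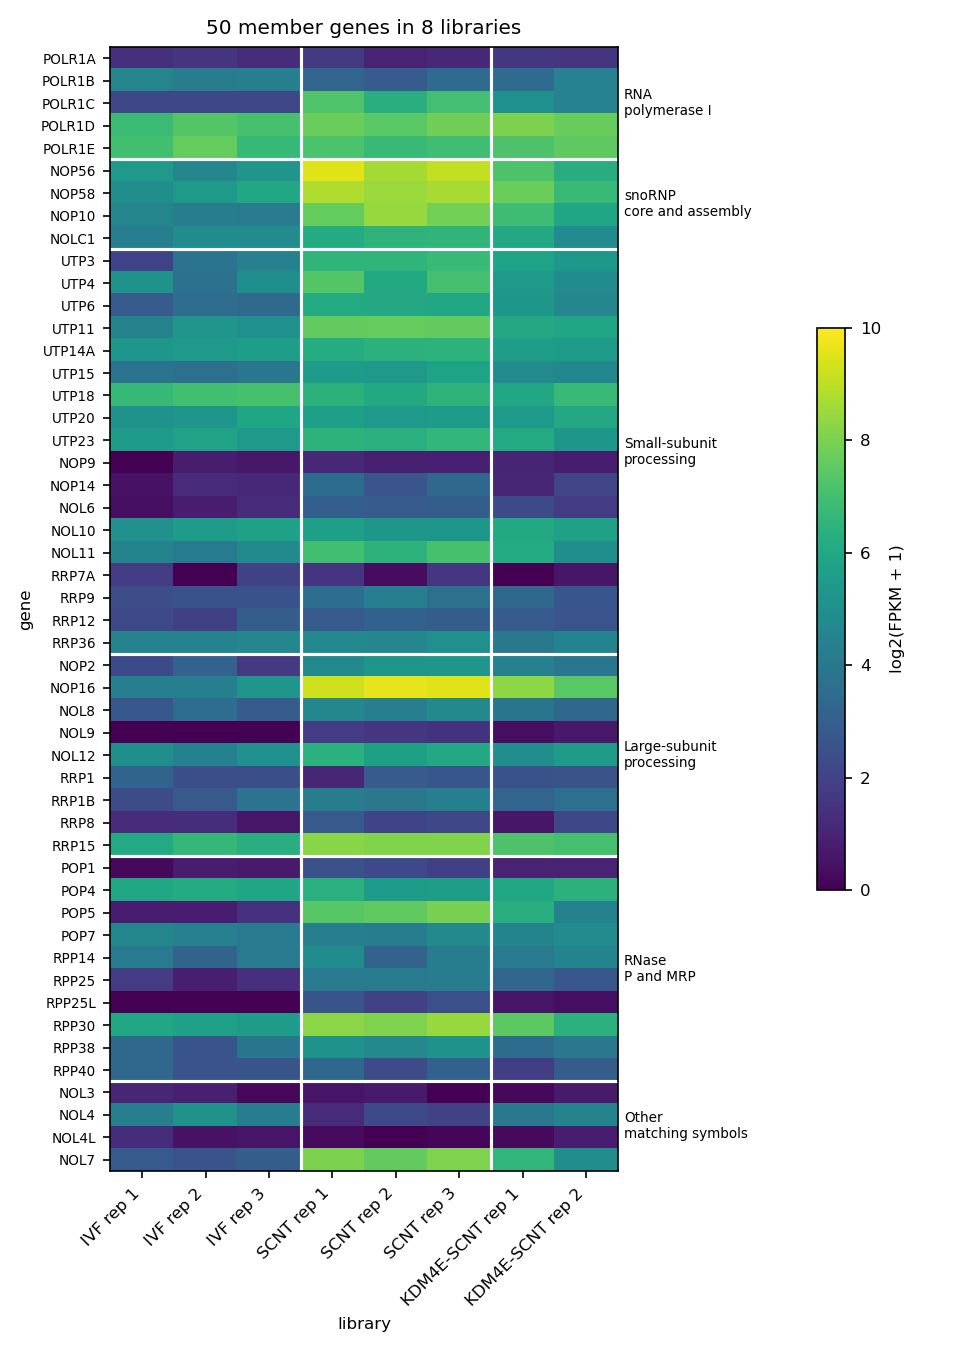
Heat map of log2(FPKM + 1) for the 50 genes (rows, grouped by role) in the 8 libraries (columns, by group). Most rows are darkest (lowest) in IVF and brightest (highest) in SCNT, with KDM4E-SCNT between; NOL4 runs the other way, and POLR1A, POLR1E, POP4, POP7 and NOL10 keep a like shade in every library.

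Between IVF and SCNT, 31 of the 48 tested genes were lower in IVF and 2 were higher, while 15 were not called. Over all tested features 23.6% were called lower and 34.9% higher, against 64.6% and 4.17% of the 48. Without POP1, NOL9 and RPP25L, 28 of 45 were lower and 2 higher (62.2% and 4.44%), against 23.0% and 35.5% of the 13989 features that reached 1 FPKM in at least 2 groups. The median log2 difference of the tested genes was -1.54, against 0.395 for all tested features, and it was -1.40 for the 45 genes. In 33 genes every IVF library lay below every SCNT library, which held for 25.9% of all tested features, and in 3 genes every IVF library lay above, against 38.5% of all tested features. The 33 include POP1, NOL9 and RPP25L, which had to differ. The difference was 4-fold or more downward in 18 genes, RPP25L among them, against 10.6% of all tested features, and 4-fold or more upward in 1, against 12.1%. Of the 33 calls, POP1, NOL9 and RPP25L included, 30 held under all of the 16 alternative settings that tested the gene (a stricter filter left 41 of the 48); the exceptions were UTP23, RRP1B and RRP8.

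KDM4E-SCNT was lower than SCNT in 20 of the 48 genes and higher in 1, and 27 were not called. Of all tested features 11.0% were called lower and 21.6% higher. Without POP1, NOL9 and RPP25L, 17 of 45 were lower and 1 higher (37.8% and 2.22%), against 10.6% and 22.7% of the features that reached 1 FPKM in at least 2 groups. The median log2 difference was -0.91 for the tested genes and 0.325 for all tested features. That split of all features moves with the scaling, from 1636 lower and 3208 higher as deposited to 2357 and 2446 with median-ratio scaling and 2108 and 2092 with quantile normalization. In 31 genes both KDM4E-SCNT libraries lay below all 3 SCNT libraries, which held for 21.4% of features, and in 4 both lay above, against 38.1%. The 31 include POP1, NOL9 and RPP25L. The count of 20 was 6 without KDM4E-SCNT replicate 2, 11 without SCNT replicate 1 and 12 without SCNT replicate 3, and the calls for POLR1C, NOP56, UTP11, NOL4 and NOL7 held under all alternatives that tested them.

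Against IVF, KDM4E-SCNT was higher in 11 of the 48 genes and lower in 0, with 0 lower also at an unadjusted p under 0.05. None of the 11 was POP1, NOL9 or RPP25L. Of all tested features 5.90% were called higher and 0.620% lower. The median log2 difference was 0.50 for the tested genes and -0.025 for all tested features. Both KDM4E-SCNT libraries lay above all IVF libraries in 23 genes, against 20.0% of features, and below them in 0, against 13.9%. The 23 include POP1, NOL9 and RPP25L, which stayed below 1 FPKM in both of these groups. The count of 11 was 4 without KDM4E-SCNT replicate 1 and 5 when only IVF and KDM4E-SCNT entered the fit. The calls for POLR1C, NOP16, POP5 and NOL7 held under all alternatives. Those for NOP56, NOP58, NOP10, UTP3, UTP6, NOP2 and RPP25 were each lost under at least 1. Since this comparison uses the same IVF and KDM4E-SCNT libraries as the preceding comparisons, the 3 sets of calls are not independent.

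The KDM4E-SCNT libraries themselves differed. Replicate 1 was above replicate 2 in 30 of the 48 tested genes (62.5%), whereas it was above in 40.4% of all tested features. The difference between them reached 2-fold, higher in replicate 1, for 6 genes (12.5%, against 9% of all tested features) and, lower in replicate 1, for 3 genes (6.25%, against 12.6%). POP5 was at 78.77 FPKM in replicate 1 and 20.18 FPKM in replicate 2, NOL7 at 95.54 and 30.02 FPKM, and NOP10 at 118.68 and 57.26 FPKM. The 3 genes lower in replicate 1 were NOP14 (1.09 and 3.21 FPKM), RRP8 (0.51 and 3.49 FPKM) and RPP40 (2.58 and 6.81 FPKM). LOC524768 was 206.44 FPKM in replicate 2 and 101.85 FPKM in replicate 1. With 2 libraries, whether the members follow that level was not tested.

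**Figure D2:**
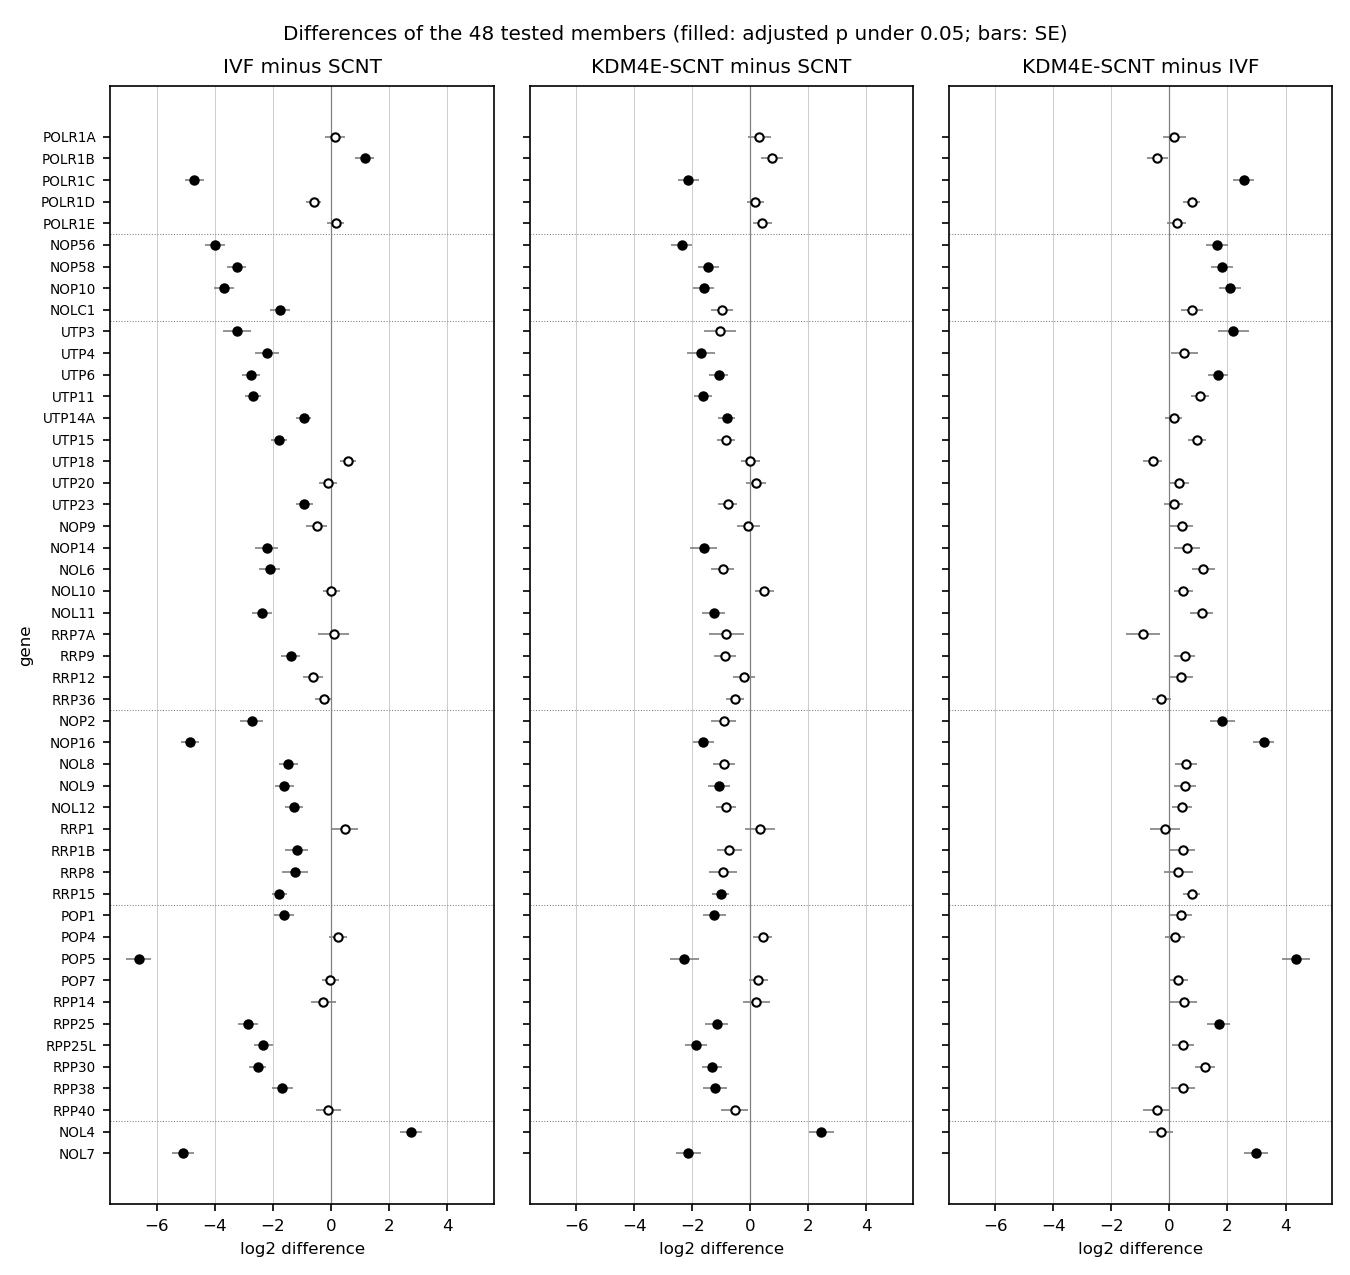
Log2 differences of the 48 tested genes in 3 panels (x axes: IVF minus SCNT, then KDM4E-SCNT against SCNT, then KDM4E-SCNT against IVF), with genes on the y axis; bars are standard errors and filled points have an adjusted p under 0.05. Points lie mainly left of 0 in the first panel (median -1.54), less far left in the second (-0.91) and right of 0 in the third (0.50); the fitted values of NOL9 and RPP25L, at 0 in IVF, depend on the added constant of 1.

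The subunits of RNA polymerase I did not share a direction. Of the 5 subunits found by the rule, POLR1C was lower in IVF than in SCNT, POLR1B was higher, and 3 were not called. That is 20% lower and 20% higher, against 23.6% and 34.9% of all tested features, so no trait of the subunits is read from these counts. POLR1C, a subunit that RNA polymerase III also uses (gene ENSBTAG00000018969.3, chromosome 23, 17035500 to 17042367, UMD3.1), was 3.44, 3.50 and 3.40 FPKM in the IVF libraries, 150.77, 78.76 and 128.74 in the SCNT libraries and 31.29 and 20.46 in the KDM4E-SCNT libraries. All 3 groups were apart, with IVF lowest. IVF differed from SCNT by -4.71 ± 0.32 on the log2 scale (26.1-fold, adjusted p = 5.77e-07). KDM4E-SCNT differed by -2.14 ± 0.36 from SCNT (4.42-fold, adjusted p = 0.00163) and by 2.57 ± 0.36 from IVF (adjusted p = 0.00120).

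POLR1B, the second largest subunit of the enzyme, ran in the opposite direction. It was 22.70, 17.65 and 18.98 FPKM in IVF, 8.51, 6.48 and 10.21 in SCNT, and 10.24 and 20.46 in KDM4E-SCNT. Every IVF library was above every SCNT library (log2 1.16 ± 0.34, 2.23-fold, adjusted p = 0.0101). The KDM4E-SCNT replicates lay far apart, 1 near each other group, and neither comparison with them was called (adjusted p = 0.141 against SCNT and 0.591 against IVF).

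The largest subunit, POLR1A, was low in every library. It stood at 1.57, 1.92 and 1.40 FPKM in IVF, 2.21, 0.96 and 1.15 in SCNT, and 2.05 and 1.86 in KDM4E-SCNT, and the groups overlapped (IVF minus SCNT 0.14 ± 0.35, adjusted p = 0.745). POLR1D, also shared with RNA polymerase III, was 110.99, 159.28 and 135.85 FPKM in IVF, 210.52, 173.57 and 229.32 in SCNT, and 257.07 and 204.78 in KDM4E-SCNT. Its IVF libraries lay below the SCNT libraries but the difference was not called (-0.60 ± 0.26, adjusted p = 0.0631). POLR1E was 123.52, 199.87 and 103.73 FPKM in IVF, 143.37, 104.79 and 122.90 in SCNT, and 145.98 and 182.07 in KDM4E-SCNT. The IVF and SCNT ranges of POLR1E overlapped (0.16 ± 0.30, adjusted p = 0.663).

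All 4 snoRNP genes were lower in IVF than in SCNT, 3 were lower in KDM4E-SCNT than in SCNT, and 3 were higher in KDM4E-SCNT than in IVF. Over all tested features these calls took 23.6%, 11.0% and 5.90%. The summed FPKM of the 4 genes was 109.5, 109.4 and 140.7 in IVF, 1435, 1200 and 1273 in SCNT, and 535.7 and 263.1 in KDM4E-SCNT. The median log2 difference of the 4 was -3.47 for IVF minus SCNT.

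NOP56 and NOP58 are the paired scaffold proteins of box C/D snoRNPs. NOP56 (gene ENSBTAG00000018812.5, chromosome 13, 52983685 to 52988922, UMD3.1) was 39.94, 23.62 and 36.49 FPKM in IVF, 721.68, 400.90 and 537.69 in SCNT, and 144.83 and 73.72 in KDM4E-SCNT. IVF was 16.1-fold below SCNT (adjusted p = 2.3e-06), KDM4E-SCNT was 5.16-fold below SCNT (log2 -2.37 ± 0.38, adjusted p = 0.00135), and KDM4E-SCNT was 3.11-fold above IVF (adjusted p = 0.0196). NOP58 was 28.77, 40.43 and 60.49 FPKM in IVF, 441.98, 361.62 and 409.79 in SCNT, and 207.51 and 104.93 in KDM4E-SCNT. The corresponding values of NOP58 were a 9.55-fold lower level in IVF (adjusted p = 7.93e-06), a 2.72-fold lower level in KDM4E-SCNT than SCNT (log2 -1.44 ± 0.37, adjusted p = 0.0115) and a 3.51-fold higher level in KDM4E-SCNT than IVF (adjusted p = 0.00992). Both scaffold genes thus held the same order, IVF below KDM4E-SCNT below SCNT, with no overlap between groups. Without KDM4E-SCNT replicate 2, the lower one, the call of NOP58 against SCNT was lost while that of NOP56 was kept.

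NOP10, a small core protein of box H/ACA snoRNPs, was 22.54, 17.58 and 16.56 FPKM in IVF, 200.40, 347.97 and 232.92 in SCNT, and 118.68 and 57.26 in KDM4E-SCNT. Its levels were again fully apart, with a log2 difference of -3.69 ± 0.33 between IVF and SCNT (adjusted p = 3.34e-06). KDM4E-SCNT stood at -1.61 ± 0.37 relative to SCNT (adjusted p = 0.00696) and at 2.08 ± 0.37 relative to IVF (adjusted p = 0.00440). NOLC1, a chaperone of snoRNPs in the nucleolus and Cajal body, was 18.25, 27.81 and 27.12 FPKM in IVF, 70.96, 89.32 and 92.61 in SCNT, and 64.66 and 27.24 in KDM4E-SCNT. It was lower in IVF than in SCNT (-1.76 ± 0.34, adjusted p = 0.00081), and its KDM4E-SCNT libraries, 1 near each other group, gave no call.

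Of the 18 small-subunit genes, 11 were lower in IVF than in SCNT, 0 were higher (0 at an unadjusted p under 0.05) and 7 were not called, with a median of -1.17. The lower calls took 61.1% of the 18, against 23.6% of all tested features. KDM4E-SCNT was lower than SCNT in 6 (33.3%, against 11.0%) and higher than IVF in 2 (11.1%, against 5.90%). The called genes take in components of several parts of the processome.

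UTP3, also known as SAS10, was 2.99, 13.09 and 19.24 FPKM in IVF, 92.47, 91.93 and 108.60 in SCNT, and 55.13 and 39.60 in KDM4E-SCNT. It had the largest IVF minus SCNT difference of the 18 (-3.24 ± 0.48, 9.42-fold, adjusted p = 0.000113), and KDM4E-SCNT exceeded IVF 4.57-fold (adjusted p = 0.0273). That last call was lost with no filter on low values (adjusted p = 0.0898) and when only IVF and KDM4E-SCNT entered the fit (0.096). Nor did it hold with either KDM4E-SCNT library left out, with log2 differences of 1.96 without replicate 1 and 2.43 without replicate 2. UTP6, a subunit of the UTP-B complex, was 6.39, 10.92 and 9.58 FPKM in IVF, 67.70, 64.75 and 62.81 in SCNT, and 37.77 and 23.74 in KDM4E-SCNT. It was called in all 3 comparisons. In the order used above, the log2 differences were -2.76 ± 0.31 (adjusted p = 1.39e-05), -1.09 ± 0.34 (adjusted p = 0.0281) and 1.67 ± 0.34 (adjusted p = 0.0100). The second call was lost under several alternatives, such as leaving out SCNT replicate 1, 2 or 3 (adjusted p = 0.0746, 0.0547 and 0.0689). The third was lost when only IVF and KDM4E-SCNT entered the fit (0.0539), among others.

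UTP11 was among the steadiest genes within SCNT, at 190.98, 197.04 and 192.09 FPKM. It was 21.50, 36.46 and 31.77 FPKM in IVF and 64.79 and 58.66 in KDM4E-SCNT, close together in that group too. IVF was 6.43-fold below SCNT (adjusted p = 7.96e-06) and KDM4E-SCNT was also below SCNT (-1.63 ± 0.31, adjusted p = 0.00258), a call that every alternative kept.

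The UTP-A complex (in yeast t-UTP, named for its part in transcription of the ribosomal genes) is represented by UTP4, UTP15 and NOL11. UTP4 was 34.18, 12.11 and 30.67 FPKM in IVF, 161.29, 66.34 and 130.65 in SCNT, and 41.83 and 27.50 in KDM4E-SCNT. UTP15 was 12.98, 11.55 and 14.09 FPKM in IVF, 45.22, 40.79 and 55.25 in SCNT, and 26.97 and 24.14 in KDM4E-SCNT. NOL11 was 21.13, 16.45 and 26.73 FPKM in IVF, 124.12, 86.51 and 133.78 in SCNT, and 70.05 and 30.89 in KDM4E-SCNT. All 3 were lower in IVF than in SCNT, by 4.62-fold (adjusted p = 0.00076), 3.45-fold (adjusted p = 0.000157) and 5.16-fold (adjusted p = 0.000104). KDM4E-SCNT was below SCNT for UTP4 (-1.69 ± 0.48, adjusted p = 0.0173) and NOL11 (-1.26 ± 0.39, adjusted p = 0.0264), and UTP15 missed the threshold (adjusted p = 0.0518). Both of those calls were lost without KDM4E-SCNT replicate 2, without SCNT replicate 1 and without SCNT replicate 3.

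NOP14 and NOL6, structural parts of the processome, were near 1 FPKM in IVF. NOP14 was 0.41, 1.37 and 1.22 FPKM in IVF, 10.46, 5.26 and 9.37 in SCNT, and 1.09 and 3.21 in KDM4E-SCNT, and it was lower than SCNT in IVF (adjusted p = 0.000505) and in KDM4E-SCNT (adjusted p = 0.0170). NOL6 was 0.30, 0.76 and 1.41 FPKM in IVF, 6.90, 6.29 and 6.81 in SCNT, and 3.70 and 2.37 in KDM4E-SCNT, and it was called for IVF against SCNT alone (adjusted p = 0.00026). RRP9, a protein of the U3 snoRNP, was 4.18 to 4.77 FPKM in IVF and 11.25 to 18.32 FPKM in SCNT (-1.40 ± 0.33, adjusted p = 0.00312).

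The smallest called differences of the small-subunit genes were those of UTP23 and UTP14A. UTP23 was 44.65, 53.37 and 40.31 FPKM in IVF and 88.50, 79.40 and 96.69 in SCNT (-0.93 ± 0.29, adjusted p = 0.0155), and its adjusted p was 0.0616 without IVF replicate 3 and 0.0606 without SCNT replicate 3. UTP14A was 37.34, 40.92 and 47.98 FPKM in IVF, 72.95, 85.35 and 87.91 in SCNT, and 47.54 and 45.02 in KDM4E-SCNT (adjusted p = 0.00724 for IVF and 0.0481 for KDM4E-SCNT, each against SCNT). The KDM4E-SCNT call of UTP14A was lost under most alternatives. Among these were quantile normalization (adjusted p = 0.0612), equal totals (0.0824) and leaving out SCNT replicate 1, 2 or 3 (0.0748, 0.092 and 0.133). The files also hold unnamed features described as UTP14A-like, so reads may be split among copies and the value of UTP14A is uncertain.

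The 7 small-subunit genes without a call were UTP18, UTP20, NOP9, NOL10, RRP7A, RRP12 and RRP36. UTP18, a subunit of UTP-B like UTP6, was 103.17, 125.77 and 133.46 FPKM in IVF, 85.07, 66.09 and 90.95 in SCNT, and 61.31 and 105.00 in KDM4E-SCNT. All its IVF libraries were above all SCNT libraries, against the direction of UTP6, but without a call (0.58 ± 0.29, adjusted p = 0.0979). NOL10 was the gene with the difference nearest 0, at 32.63, 43.67 and 51.44 FPKM in IVF, 48.48, 38.42 and 38.45 in SCNT, and 65.79 and 52.38 in KDM4E-SCNT (0.01 ± 0.28, adjusted p = 0.976). NOP9 stayed at 1.19 FPKM or less in every library and RRP7A at 2.77 FPKM or less, so little can be read from either. UTP20 was 33.50 to 58.19 FPKM in IVF and 41.03 to 48.48 FPKM in SCNT, RRP12 was 2.71 to 6.81 FPKM in IVF and up to 7.62 FPKM in SCNT, and RRP36 was 21.05 to 23.96 FPKM in IVF and 23.91 to 31.03 FPKM in SCNT. All 3 pairs of ranges overlapped. The description that the files give for RRP36 names another protein, so its identity is uncertain.

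Of the 9 large-subunit genes, 8, NOL9 among them, were lower in IVF than in SCNT and 0 were higher (0 at an unadjusted p under 0.05). The lower calls took 88.9% of the 9, against 23.6% of all tested features. KDM4E-SCNT was lower than SCNT in 3 (33.3%, against 11.0%), again with NOL9, and higher than IVF in 2 (22.2%, against 5.90%). The median log2 difference for KDM4E-SCNT minus SCNT was -0.92.

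NOP16, a nucleolar protein of early large-subunit particles (gene ENSBTAG00000010734.4, chromosome 7, 39202866 to 39207621, UMD3.1), was 18.95, 18.70 and 35.77 FPKM in IVF, 620.98, 783.13 and 726.85 in SCNT, and 310.55 and 170.67 in KDM4E-SCNT. It had the highest SCNT mean FPKM of the 50 genes. IVF was 29.1-fold below SCNT (-4.86 ± 0.32, adjusted p = 5.63e-07), KDM4E-SCNT 3.06-fold below SCNT (-1.61 ± 0.36, adjusted p = 0.00599) and KDM4E-SCNT 9.49-fold above IVF (3.25 ± 0.36, adjusted p = 0.000294). The call against SCNT was lost without KDM4E-SCNT replicate 2.

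NOP2, an RNA methyltransferase of the large-subunit ribosomal RNA, was 3.76, 7.84 and 2.12 FPKM in IVF, 26.03, 37.99 and 36.14 in SCNT, and 20.04 and 14.31 in KDM4E-SCNT. It was lower in IVF than in SCNT (6.68-fold, adjusted p = 8.13e-05) and higher in KDM4E-SCNT than in IVF (3.53-fold, adjusted p = 0.0235). The call against IVF was lost under several alternatives. Among these were no filter on low values (adjusted p = 0.0647) and a fit of only IVF and KDM4E-SCNT (0.0831). RRP15 was 68.26, 99.08 and 77.92 FPKM in IVF, 294.08, 277.21 and 271.80 in SCNT, and 145.01 and 130.50 in KDM4E-SCNT. Its SCNT libraries were tightly grouped, and both other groups were lower (adjusted p = 7.71e-05 for IVF and 0.0153 for KDM4E-SCNT).

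NOL9, the kinase that phosphorylates the 5′ ends of RNA cut during large-subunit processing, was listed at 0 in all 3 IVF libraries, at 2.47, 1.98 and 1.75 FPKM in SCNT and at 0.31 and 0.61 FPKM in KDM4E-SCNT. Every SCNT library was above every library of the other groups, which the filter favours for a gene this low. No fold is given against values of 0. NOL8 was at most 10.80 FPKM in IVF and 18.15 to 25.16 in SCNT (adjusted p = 0.00228), and NOL12 was 19.89 to 31.15 and 50.91 to 83.66 FPKM (-1.27 ± 0.31, adjusted p = 0.00369). Neither was called in KDM4E-SCNT against SCNT.

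RRP1 and RRP1B are paralogues that lie near each other on chromosome 1, RRP1 at 146569084 to 146583242 and RRP1B at 146437114 to 146461658 (UMD3.1). RRP1B was 3.97, 6.02 and 13.17 FPKM in IVF and 17.48, 14.82 and 19.07 in SCNT, a call (-1.19 ± 0.39, adjusted p = 0.0185) that was lost when IVF replicate 1 was left out and likewise for SCNT replicates 1 and 3. RRP1 was 8.39, 4.30 and 4.30 FPKM in IVF and 1.13, 6.28 and 5.31 in SCNT, overlapping (0.48 ± 0.46, adjusted p = 0.387). Whether the paralogues differ from each other was not tested. RRP8, a methyltransferase of the large-subunit RNA, was 1.44, 1.47 and 0.57 FPKM in IVF and 5.93, 3.06 and 3.42 in SCNT (adjusted p = 0.0292), and that call was lost in 4 of the 16 alternatives.

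The 10 proteins of RNase P and RNase MRP fell into those with large differences and those with overlapping groups. For IVF against SCNT, 6 (POP1, POP5, RPP25, RPP25L, RPP30 and RPP38) were lower, 0 were higher (0 at an unadjusted p under 0.05) and 4 (POP4, POP7, RPP14 and RPP40) were not called. Without POP1 and RPP25L, 4 of 8 were lower in IVF. Of all tested features 23.6% were lower and 34.9% higher. Of the features that reached 1 FPKM in at least 2 groups, 23.0% were lower. The same 6 genes were lower in KDM4E-SCNT than in SCNT (4 of 8 without POP1 and RPP25L). Such calls took 11.0% of all tested features, and 10.6% of those that reached 1 FPKM in at least 2 groups. POP5 and RPP25 were higher in KDM4E-SCNT than in IVF, a call that took 5.90% of all tested features.

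POP5, RPP14, RPP30 and RPP40 form a protein subcomplex at the catalytic RNA. POP5 (gene ENSBTAG00000005385.3, chromosome 17, 65102638 to 65104915, UMD3.1) was 0.72, 0.73 and 1.72 FPKM in IVF, 166.12, 188.71 and 242.96 in SCNT, and 78.77 and 20.18 in KDM4E-SCNT. It was the gene with the largest difference of all 48, at 1.72 FPKM or less in IVF and at 166.12 FPKM or more in SCNT. IVF differed from SCNT by -6.62 ± 0.43 on the log2 scale (98.5-fold, adjusted p = 5.35e-07). KDM4E-SCNT differed by -2.27 ± 0.49 from SCNT (adjusted p = 0.00487) and by 4.36 ± 0.49 from IVF (20.5-fold, adjusted p = 0.000294). The call against SCNT was lost without KDM4E-SCNT replicate 2, in which POP5 was lower.

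RPP30 (chromosome 26, 12531280 to 12559200, UMD3.1), a partner of POP5, was 60.46, 51.96 and 44.52 FPKM in IVF, 307.28, 266.49 and 348.49 in SCNT, and 178.32 and 83.16 in KDM4E-SCNT. IVF was 5.79-fold below SCNT (adjusted p = 2.71e-05), KDM4E-SCNT was below SCNT by a log2 difference of -1.32 ± 0.35 (adjusted p = 0.0124), and KDM4E-SCNT was not called against IVF (adjusted p = 0.0552) although both its libraries lay above all IVF libraries. RPP14 was 16.39, 8.18 and 16.75 FPKM in IVF, 28.34, 8.17 and 17.69 in SCNT, and 16.43 and 21.59 in KDM4E-SCNT, with the groups overlapping (-0.28 ± 0.43, adjusted p = 0.593). Of these subcomplex members, POP5 and RPP30 had no overlap between IVF and SCNT, and RPP14 had all IVF libraries within the SCNT range.

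RPP25, which binds the P3 domain of the RNA together with RPP20 (the product of POP7), was 2.32, 0.80 and 1.54 FPKM in IVF, 16.76, 16.14 and 17.77 in SCNT, and 8.85 and 5.49 in KDM4E-SCNT. It was lower in IVF (-2.85 ± 0.34, 7.22-fold, adjusted p = 2.56e-05) and in KDM4E-SCNT (-1.16 ± 0.39, adjusted p = 0.0355) than in SCNT, and higher in KDM4E-SCNT than in IVF (1.69 ± 0.39, adjusted p = 0.0183). Its paralogue RPP25L was listed at 0 in all IVF libraries, at 4.99, 2.89 and 4.46 FPKM in SCNT and at 0.48 and 0.29 FPKM in KDM4E-SCNT. POP7 itself was 23.18, 19.41 and 16.69 FPKM in IVF, 18.50, 17.49 and 24.79 in SCNT, and 21.98 and 27.29 in KDM4E-SCNT. The POP7 groups overlapped in all comparisons (IVF minus SCNT -0.03 ± 0.29, adjusted p = 0.934).

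POP1, the largest protein of the complexes, was 0.17, 0.69 and 0.63 FPKM in IVF, 4.61, 3.59 and 2.72 in SCNT, and 0.94 and 0.93 in KDM4E-SCNT. All its SCNT libraries were above all others, and as for RPP25L the filter favours that pattern. RPP38, which binds a kink-turn of the RNA, was 9.54, 4.99 and 13.80 FPKM in IVF, 33.21, 24.86 and 34.55 in SCNT, and 10.75 and 14.69 in KDM4E-SCNT. RPP38 in KDM4E-SCNT lay within or just above the IVF range, below every SCNT library (adjusted p = 0.00156 for IVF and 0.0359 for KDM4E-SCNT, against SCNT). Without KDM4E-SCNT replicate 2 the calls of POP5, RPP25, RPP30 and RPP38 against SCNT were lost. Those of RPP25 and RPP38 were lost under several other alternatives too. Among these were no filter on low values (adjusted p = 0.0544 and 0.0661) and leaving out SCNT replicate 1 (0.0846 and 0.0946) or 3 (0.0939 and 0.105).

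POP4 and RPP40 complete the set. POP4, which contacts the RNA in both enzymes, was 62.11, 70.56 and 60.00 FPKM in IVF, 81.29, 42.49 and 45.92 in SCNT, and 63.27 and 84.26 in KDM4E-SCNT. RPP40, of the POP5 subcomplex, was 9.22, 4.95 and 5.05 FPKM in IVF, 9.51, 3.91 and 7.65 in SCNT, and 2.58 and 6.81 in KDM4E-SCNT. The groups of RPP40 and of POP4 overlapped, with IVF minus SCNT differences of -0.09 ± 0.42 and 0.24 ± 0.31 (adjusted p = 0.857 and 0.516). In KDM4E-SCNT, POP4 and POP7 had log2 differences from SCNT of 0.42 ± 0.34 and 0.28 ± 0.33.

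**Figure D3:**
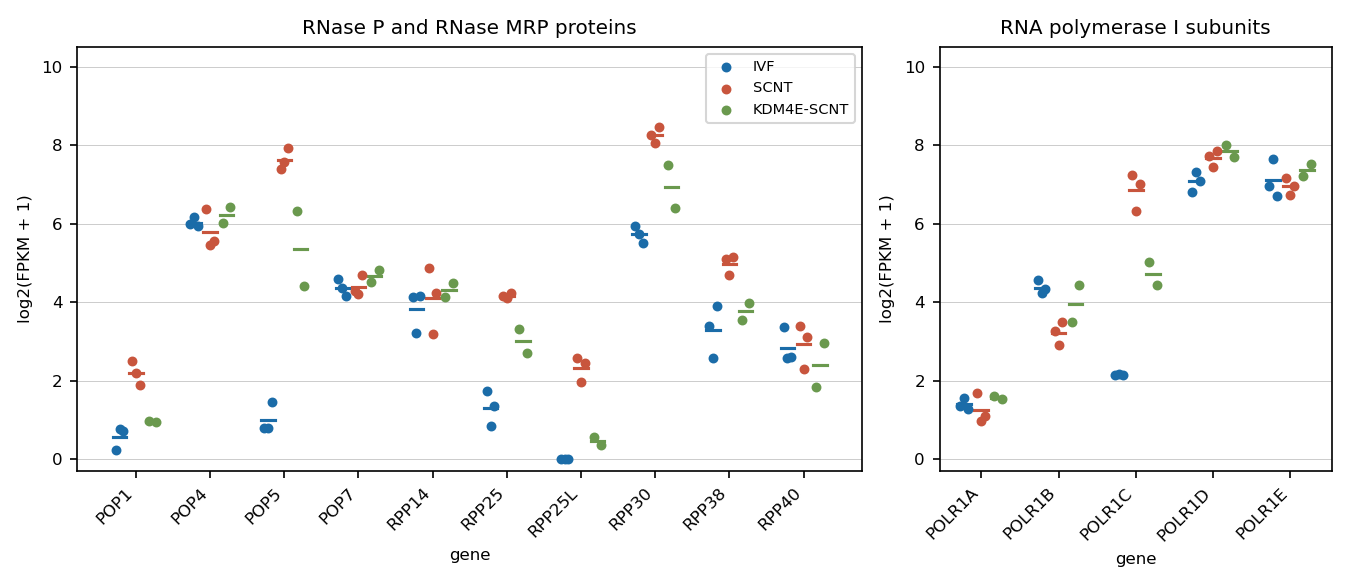
Log2(FPKM + 1) in each library (points, coloured by group; short bars are group means) for the proteins of RNase P and RNase MRP and for the RNA polymerase I subunits (x axis). The IVF and SCNT points of POP5 and POLR1C are farthest apart, those of POP4, POP7, RPP14 and RPP40 mix, and POLR1B is the 1 subunit with IVF above SCNT by a called difference.

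The 4 genes kept apart held the widest contrast of direction. NOL7 (gene ENSBTAG00000021554.3, chromosome 23, 42795776 to 42800011, UMD3.1), which encodes a nucleolar protein, was 6.19, 5.01 and 6.73 FPKM in IVF, 263.24, 193.55 and 267.63 in SCNT, and 95.54 and 30.02 in KDM4E-SCNT. It was 34.6-fold lower in IVF than in SCNT (-5.11 ± 0.38, adjusted p = 9.93e-07), 4.38-fold lower in KDM4E-SCNT than in SCNT (-2.13 ± 0.43, adjusted p = 0.00345) and 7.89-fold higher in KDM4E-SCNT than in IVF (adjusted p = 0.00126). NOL4 (gene ENSBTAG00000010299.5, chromosome 24, 23166234 to 23627792, UMD3.1), best known from nervous tissue, was 18.26, 33.71 and 17.62 FPKM in IVF, 1.31, 3.61 and 2.92 in SCNT, and 15.23 and 21.15 in KDM4E-SCNT. NOL4 was higher than SCNT in IVF (2.74 ± 0.38, 6.68-fold, adjusted p = 6.54e-05) and in KDM4E-SCNT (2.45 ± 0.42, 5.47-fold, adjusted p = 0.00179), and its KDM4E-SCNT and IVF ranges overlapped (adjusted p = 0.759). NOL3 was 1.12 FPKM or less and NOL4L 1.51 FPKM or less in every library.

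What the genes share beyond their names was looked at by position and length. They lie on 25 chromosomes. The 31 genes called lower in IVF than in SCNT had a median genomic span of 8808 bp, and the 17 tested genes not called or called higher had a median of 15820 bp. Across the 48 genes, Spearman's rho between span and the IVF minus SCNT log2 difference was 0.407, and across 14809 tested features with a position it was 0.223. Against the SCNT mean FPKM, rho was -0.537 across the 48 genes and -0.426 across all tested features. These are descriptions across genes that share the same libraries, the SCNT mean enters both measures of the last pair, and a part of each relation is present in features at large.

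The wider pathway was followed with 7 lists of other genes, 148 in all, of which 138 are in the files and 133 were tested. For IVF against SCNT, 81 of the 133 were lower, 10 were higher and 42 were not called, with a median log2 difference of -1.31; of all tested features 23.6% were lower and 34.9% higher. The 81 include TBL3 and ELAC1, which reached 1 FPKM in SCNT alone. They passed the filter only through the group in which they were high, so their calls support nothing here. KDM4E-SCNT was lower than SCNT in 38, TBL3 included, higher in 6 and not called in 89, against 11.0% lower and 21.6% higher over all features. It was higher than IVF in 25 and lower in 0, against 5.90% and 0.620%. The count of 38 was 6 without KDM4E-SCNT replicate 2, 18 without SCNT replicate 1, 21 without SCNT replicate 3, 25 with no filter on low values and 59 with median-ratio scaling. The count of 25 was 4 without KDM4E-SCNT replicate 1 and 13 when only IVF and KDM4E-SCNT entered the fit.

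Among initiation factors of RNA polymerase I and subunits it shares, 8 of 14 were lower in IVF than in SCNT and 0 higher. TWISTNB, the older symbol of the subunit now named POLR1F, was 31.10, 6.96 and 16.16 FPKM in IVF, 231.85, 175.57 and 265.53 in SCNT, and 91.86 and 62.39 in KDM4E-SCNT (-3.76 ± 0.43 for IVF minus SCNT). The polymerase subunits filed under other older symbols were less far apart: ZNRD1 had a difference of -0.75 ± 0.28 (adjusted p = 0.0335, lost in 6 of the 16 alternatives) and CD3EAP one of -0.17 ± 0.32 (adjusted p = 0.667). POLR2L and POLR2F, which all nuclear RNA polymerases share, were lower in IVF by -3.92 ± 0.46 and -2.55 ± 0.33 on the log2 scale. POLR2H, another subunit that all of them share, was 43.59, 30.29 and 47.68 FPKM in IVF, 24.25, 42.25 and 27.59 in SCNT, and 72.81 and 74.23 in KDM4E-SCNT. It was not called for IVF minus SCNT (0.37 ± 0.31, adjusted p = 0.306) and was higher in KDM4E-SCNT than SCNT (1.24 ± 0.34, adjusted p = 0.0155), with adjusted p = 0.0583 without SCNT replicate 1, 0.0553 without SCNT replicate 3, 0.0896 without KDM4E-SCNT replicate 2 and 0.0517 with median-ratio scaling.

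Among the partners of the snoRNP genes, 7 of 10 were lower in IVF and 1 was higher. NHP2, which sits beside NOP10 in box H/ACA particles, was 147.81, 94.73 and 135.91 FPKM in IVF, 1121.53, 953.73 and 1214.27 in SCNT, and 634.06 and 308.77 in KDM4E-SCNT (-3.13 ± 0.30). FBL, the methyltransferase of box C/D particles, and SNU13, which also binds their RNA, differed by -3.23 ± 0.35 and -1.90 ± 0.25. The other core proteins of box H/ACA particles did not share this direction: GAR1 was not called (-0.14 ± 0.27, adjusted p = 0.664), and DKC1, the pseudouridine synthase, was 47.50, 58.41 and 54.17 FPKM in IVF, 24.71, 19.11 and 24.63 in SCNT, and 44.78 and 56.87 in KDM4E-SCNT. DKC1 was thus higher than SCNT both in IVF (adjusted p = 0.0024) and in KDM4E-SCNT (1.12 ± 0.31, adjusted p = 0.0150), opposite to NOP10 and NHP2, and its second call was lost without KDM4E-SCNT replicate 2 (adjusted p = 0.116).

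Of 34 other small-subunit factors, 19, TBL3 among them, were lower in IVF and 2 higher, and of 45 other large-subunit factors 27 were lower and 6 higher. The smallest p-values of the first list belonged to EMG1 (-4.09 ± 0.34), a methyltransferase of the small-subunit RNA, to IMP3 (-3.63 ± 0.30), a U3 snoRNP protein, and to the kinase RIOK3, which was higher in IVF. RIOK3 was 321.99, 492.14 and 366.95 FPKM in IVF, 33.92, 55.24 and 44.65 in SCNT, and 230.92 and 186.10 in KDM4E-SCNT (3.12 ± 0.28 for IVF minus SCNT, and 2.22 ± 0.32, adjusted p = 0.000882, for KDM4E-SCNT against SCNT). The smallest of the second list belonged to RPF2 (-3.21 ± 0.27), which brings the 5S RNA particle to the large subunit, TMA16 (-3.66 ± 0.34) and GNL3L (-4.11 ± 0.40). Besides RIOK3 and DKC1, the genes higher in IVF than in SCNT were NAT10, SPATA5, SENP3, NIP7, SBDS, NVL, NMD3 and NPM3, named after their values were seen. With median-ratio scaling, or without SCNT replicate 2, the 10 became 6.

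Of 7 multifunctional nucleolar proteins 5 were lower in IVF and 1 was higher, with DDX21 at -1.89 ± 0.29, NCL (nucleolin) at -1.55 ± 0.30 and KRI1 at -1.56 ± 0.44. In the exosome and other RNA decay enzymes, 10 of 16 were lower and 0 higher. ISG20L2, an exonuclease of the large-subunit precursor, was 0, 0.23 and 1.07 FPKM in IVF, 48.59, 39.41 and 52.06 in SCNT, and 16.24 and 11.43 in KDM4E-SCNT (-5.12 ± 0.35). EXOSC1 and DIS3 of the exosome differed by -3.45 ± 0.37 and -1.74 ± 0.30.

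Of 7 genes for tRNA end processing and the separate, protein-only RNase P of mitochondria, 5, ELAC1 among them, were lower in IVF and 0 higher. TRMT10C, a subunit of the mitochondrial enzyme, was 16.13, 17.21 and 12.13 FPKM in IVF, 155.77, 176.94 and 187.84 in SCNT, and 78.73 and 54.99 in KDM4E-SCNT (-3.44 ± 0.28). KIAA0391, the nuclease subunit of that enzyme, was 20.43, 15.81 and 17.57 FPKM in IVF, 20.58, 21.09 and 17.21 in SCNT, and 16.59 and 15.90 in KDM4E-SCNT, with no call (-0.12 ± 0.28 for IVF minus SCNT, adjusted p = 0.714). The partner HSD17B10 differed by -2.76 ± 0.31, and TRNT1, which adds the CCA end to tRNA, by -1.37 ± 0.27. ELAC2, which cuts the 3′ end of tRNA precursors, was not called (-0.32, adjusted p = 0.448).

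**Figure D4:**
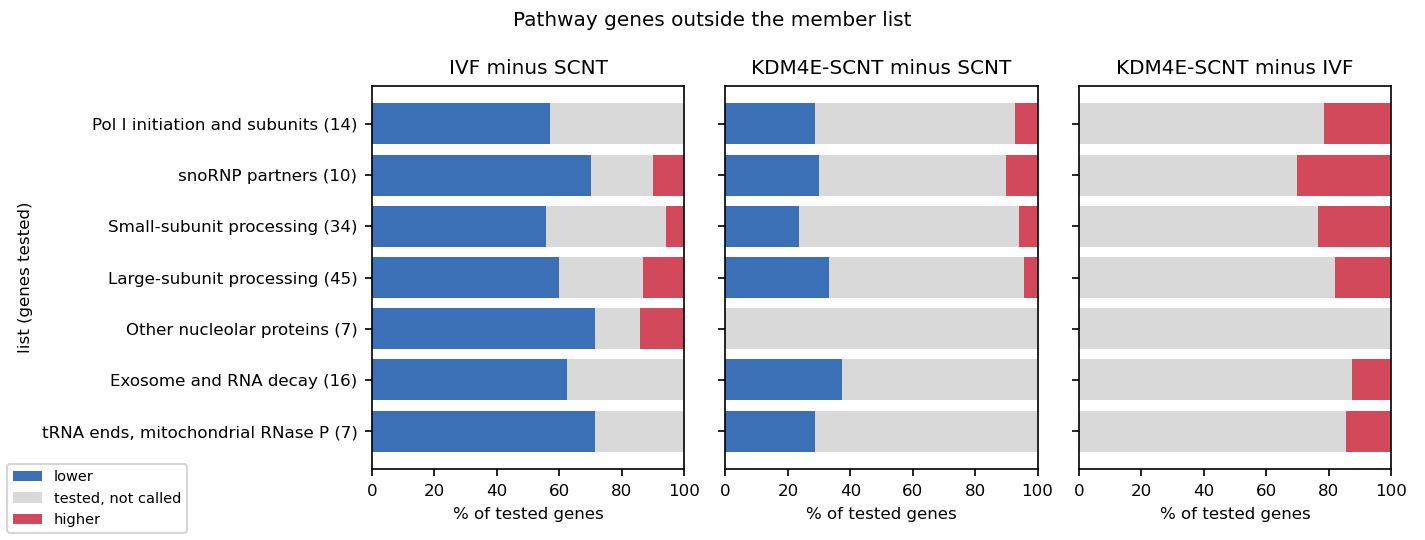
Share of the tested genes of each of the 7 pathway lists called lower or higher (x axes, percent) in the 3 comparisons (panels); the y axis names each list with its number of tested genes. Lower calls dominate each list for IVF minus SCNT (81 of 133 in all, TBL3 and ELAC1 included), are fewer for KDM4E-SCNT against SCNT (38, TBL3 included) and absent against IVF, where 25 genes were called higher.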

How the data were processed

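The libraries were made from amplified cDNA of total RNA, per the labels' protocols. Per the submitters' processing notes, the tools were bcl2fastq 2.16, HISAT 0.1.6, StringTie 1.0.4, Bowtie2 2.2.5 and RSEM 1.2.12 with build UMD3.1; which tool did which step, and the annotation, are not given in the sources used here. The values are FPKM per feature and library, as deposited by the authors, per the file headers; no counts were used, so depth is unknown and no counting interval is given.

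The 8 libraries were fitted together in limma 3.58.1 (R 4.3.3) with trend and robust moderation on log2(FPKM + 1), 1 mean per group, for features of at least 1 FPKM in at least 2 libraries; scripts were tested on simulated data. Calls needed a Benjamini-Hochberg adjusted p under 0.05. The members, lists and tests were chosen with earlier results of these data known. Values per library are given for all RNase P and RNA polymerase I members and for others to fill each role. They are also given for the 4 called members with the largest difference in each direction and comparison. The 3 members with the highest mean and the 2 nearest 0 have them too. Pathway genes were chosen as the 3 with the smallest p per list. To these were added the genes higher in IVF, and ZNRD1, CD3EAP, GAR1, ELAC2, POLR2H and KIAA0391, chosen after their values were seen. Many pathway genes are given by a log2 difference or by name alone, without values per library. The 16 alternatives were a pseudocount of 0.1, no filter, a filter of 5 FPKM in 3 libraries, quantile, median-ratio and equal-total scaling, a fit of only the 2 groups compared, a replicate block, and each of the 8 libraries left out. No sequence is printed because the reference tables used here hold gene names only.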

Additional observations from a re-analysis of the deposited data

How the results depend on the processing

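Across the 16 alternatives, 2109 of the 2283 values of single members kept direction and side of the threshold, 93 lost a call, 30 gained one and 51 changed sign; 0 of those 51 were called in the reported fit or under the alternative. The causes of these changes were not tested. Leaving out 1 library each gave 28 to 32 members lower and 2 higher for IVF minus SCNT, 6 to 21 lower and 1 to 2 higher for KDM4E-SCNT minus SCNT, and 0 lower and 4 to 12 higher for KDM4E-SCNT minus IVF; with only the 2 groups compared, the last count was 5. The replicate block gave 31 lower and 2 higher, 15 lower and 1 higher, and 0 lower and 11 higher in the same order. Same-numbered IVF and SCNT libraries correlated by 0.0602, 0.0934 and 0.0277 in their deviations from group means. Same-numbered pairs with KDM4E-SCNT gave 0.0324 and 0.0678 for IVF and 0.00649 and 0.123 for SCNT. Some unlike-numbered pairs were higher, such as IVF replicate 3 with SCNT replicate 1 (0.0702) and SCNT replicate 3 with KDM4E-SCNT replicate 1 (0.134). Deviations within such small groups constrain each other, so these values cannot say if the numbers mark a shared batch. With median-ratio scaling 27 members were lower in KDM4E-SCNT than in SCNT. The median of all features for IVF minus SCNT was 0.395 as deposited, 0.234 with median-ratio scaling, 0.178 with quantile normalization and 0.518 with equal totals. For KDM4E-SCNT minus SCNT it was 0.325, 0.130, 0.010 and 0.387.

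The changes of sign, all in uncalled log2 differences, were as follows. For IVF minus SCNT, median-ratio scaling gave POLR1A -0.012, POLR1E -0.098, NOL10 -0.239, RRP7A -0.031 and POP4 -0.014; quantile normalization gave POLR1A -0.221 and RRP7A -0.232; equal totals gave UTP20 0.079, POP7 0.158, RPP40 0.076 and the pathway genes GAR1 0.051, CD3EAP 0.002 and KIAA0391 0.062; and a pseudocount of 0.1 gave RRP7A -0.328. Leaving out libraries gave ranges of -0.003 to 0.353 for POLR1A, -0.115 to 0.355 for POLR1E, -0.359 to 0.030 for UTP20, -0.134 to 0.186 for NOL10, -0.314 to 0.701 for RRP7A, -0.080 to 0.807 for RRP1, -0.146 to 0.117 for POP7, -0.727 to 0.112 for RPP14, -0.412 to 0.137 for RPP40 and -0.248 to 0.051 for GAR1. For KDM4E-SCNT minus SCNT, median-ratio scaling gave POLR1D -0.124, UTP18 -0.292, UTP20 -0.092, POP7 -0.010 and RPP14 -0.071, and quantile normalization gave POLR1A -0.155, RRP1 -0.080 and CD3EAP -0.018. The ranges with libraries left out were -0.378 to 0.389 for UTP18, -0.105 to 0.509 for UTP20, -0.191 to 0.062 for NOP9, -0.226 to 0.660 for RRP1, -0.239 to 0.600 for RPP14 and -1.094 to 0.031 for RPP40. For KDM4E-SCNT minus IVF they were -0.879 to 0.054 for POLR1B, -0.254 to 0.558 for UTP23, -0.284 to 0.128 for RRP1, -0.486 to 1.086 for RRP8, -0.018 to 0.390 for POP4, -1.001 to 0.124 for RPP40 and -0.514 to 0.002 for NOL4.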

Other observations

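The files hold 3 features described as UTP14A-like that do not carry its symbol and so fall outside the group. BGI_novel_G004729 (chromosome 9, 60276842 to 60280377, UMD3.1) was 55.63, 68.83 and 73.07 FPKM in IVF, 43.55, 57.26 and 51.66 in SCNT, and 54.76 and 75.29 in KDM4E-SCNT, and it was not called for IVF minus SCNT (adjusted p = 0.263). BGI_novel_G004730, at the same span, was 33.04, 47.62 and 46.49 FPKM in IVF, 8.45, 9.45 and 6.53 in SCNT, and 27.01 and 45.55 in KDM4E-SCNT. Its IVF level exceeded that of SCNT (log2 2.24 ± 0.32, adjusted p = 7.76e-05), the opposite direction to UTP14A itself. LOC505600 (chromosome 21, 56883745 to 56886411) was 1.91, 3.94 and 8.17 FPKM in IVF, 1.29, 2.13 and 3.12 in SCNT, and 4.74 and 6.26 in KDM4E-SCNT, with no call for IVF minus SCNT (adjusted p = 0.167).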
